A study of Mus musculus with 6 samples.

Results

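The let-7 family was followed hairpin by hairpin in small RNA of exosomes released by HN9.10e cells, an immortalized line of mouse embryonic hippocampal neurons of wild type genotype. Its members were the 10 rows of the count matrix whose Ensembl identifier carries the GENCODE M21 name Mirlet7a-1, Mirlet7a-2, Mirlet7b, Mirlet7c-1, Mirlet7c-2, Mirlet7d, Mirlet7f-2, Mirlet7g, Mirlet7i or Mir98, out of 1973 rows. Control cells (3 libraries) received no ceramide, and the treated cells (3 libraries) received 100 nM C6-ceramide in the culture medium. Exosomes of both groups were collected after 48 h from medium that also holds fetal bovine serum, by filtration and a precipitation kit. The study calls the replicates biological and its general statistics speak of independent experiments, but its sequencing methods do not say whether each library came from a culture of its own, so a p-value measures the spread between these libraries, which may be technical.

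MicroRNAs are cut from a hairpin precursor into a strand of the 5′ arm (5p) and one of the 3′ arm (3p), and the retained strand guides Argonaute to messenger RNAs that pair with its seed, bases 2 to 8. In the let-7 family the 5p strand is usually the active one, and all members share one seed, so they are expected to bind largely the same sites. The family is known for its rise as progenitor cells differentiate, in neural tissue among others, and for the protein Lin28, which binds let-7 precursors and blocks their maturation in embryonic cells.

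The 10 rows encode 8 distinct 5p miRNAs, and each is shown because the rows differ from one another only by a few bases outside the seed. The sequences are RefSeq's for GRCm38.p6, which had an entry for all 10 members, with the seed in capitals.
let-7a-5p: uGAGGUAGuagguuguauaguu
let-7b-5p: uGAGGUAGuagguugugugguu
let-7c-5p: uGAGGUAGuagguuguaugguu
let-7d-5p: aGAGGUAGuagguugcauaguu
let-7f-5p: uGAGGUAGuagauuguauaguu
let-7g-5p: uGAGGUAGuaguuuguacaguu
let-7i-5p: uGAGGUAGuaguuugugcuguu
miR-98-5p: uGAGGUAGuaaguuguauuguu
Counted from 1 at the 5′ end with let-7a-5p first, let-7c-5p differs by A19G, let-7f-5p by G12A and let-7b-5p by A17G and A19G. miR-98-5p differs by G11A and A19U, let-7g-5p by G12U and U18C, and let-7d-5p by U1A and U16C. The most distant is let-7i-5p, with G12U, A17G, U18C and A19U. All 8 are 22 bases long, so their levels are set side by side as CPM without a correction for length. CPM are counts divided by the library's total in units of 1e+06 counts, after scaling with edgeR's TMM factors. Whether the 8 sequences were captured and assigned equally well was not tested, so orders among members are orders of counts.

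A row counts every read assigned to a hairpin, so 5p and 3p strands cannot be separated, and hairpins that yield the same strand need not be independent. The 22 bases of let-7a-5p lie in both let-7a hairpins, those of let-7c-5p in both let-7c hairpins, and those of let-7f-5p in let-7f-2 and in let-7f-1, which has no row here. The let-7c-2 row held between 4.7% and 5.88% more counts than the let-7c-1 row in the 6 libraries, and the let-7a-1 row between 7.96% and 21.8% more than let-7a-2. Gm24111, a GENCODE gene that covers the let-7f-1 hairpin on the opposite strand, held between 2.69% and 18% more than let-7f-2. These near-equal counts come from hairpins on different chromosomes, so each of the 3 pairs is better read as one measurement than as 2. The 3p strands add a further overlap, because let-7a-1 and let-7c-2 give an identical one, shown here with its seed in capitals.
let-7a-1-3p and let-7c-2-3p: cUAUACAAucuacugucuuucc
The counts of let-7c-2 beyond those of let-7c-1 came to 1054 ± 81.8 CPM without ceramide and 1595 ± 56.8 CPM with it (SD, n = 3 each), with no overlap of the groups. That is a 1.51-fold rise, close to the 1.57-fold rise of each let-7c row. Whether 3p reads make up this excess was not tested. The groups overlapped for let-7a-1 beyond let-7a-2 (275 ± 105.6 and 483 ± 128.5 CPM) and for Gm24111 beyond let-7f-2 (103 ± 71.2 and 209 ± 144.7 CPM).

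Total counts ran from 800810 to 2760015 per library, and every member had at least 1000 counts in every library, so counting error alone was at most 3.16% of a value. That bound treats each count as a separate molecule. Of 418 rows that passed the filter on low counts, 48 (11.5%) were called, which means an adjusted p of 0.05 or less together with a log2 fold change of 0.6 or more in size. Of these, 13 were higher and 35 (8.37%) lower in ceramide. The split was 21 higher and 26 lower with the median-of-ratios factors of DESeq2, 23 and 28 with upper-quartile factors, 18 and 28 with scaling on rows outside the family, and 4 and 42 with library size alone. Without control replicate 1 there were 28 called rows. The library names carry lane code 1 for control replicate 1 and ceramide replicate 1, code 4 for the other control libraries and code 2 for the other ceramide libraries. An equal code does not show a shared run, and for codes 2 and 4 lane and treatment cannot be told apart. Neural miRNAs were present, with 14 of 15 listed rows found and none at 0, although the neuronal miR-124 rows had only 14.3 to 21 CPM.

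The family was led by let-7b, followed by let-7i and let-7c. The let-7b hairpin (chr15:85707319-85707403, in an exon of Lncppara) had 65703, 68562 and 62930 CPM in control replicates 1, 2 and 3. In ceramide replicates 1, 2 and 3 it had 101101, 102082 and 92625 CPM. Every ceramide library lay above every control library, with a coefficient of variation of 4.28% in control and 5.27% in ceramide. The let-7i hairpin (chr10:122985640-122985724, minus strand, in an exon of the pseudogene D630033A02Rik) had 34178, 43815 and 42832 CPM in the control libraries and 45889, 55668 and 57487 CPM in the ceramide libraries. The lowest ceramide library of let-7i, replicate 1, was close to the highest control library, and replicate 1 was the lowest library of both groups.
The let-7c-1 row (chr16:77599657-77599750, in an intron of Mir99ahg) had 18501, 20444 and 19035 CPM without ceramide and 32571, 31087 and 27433 CPM with it. Its twin let-7c-2 (chr15:85706603-85706697) ranged from 19463 to 21524 CPM without ceramide and from 29044 to 34103 CPM with it. The 4 rows of let-7b, let-7i and let-7c together held 92.2 ± 0.494% of the family's counts in control and 92.4 ± 0.31% in ceramide (SD, n = 3 each).

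**Figure D1:**
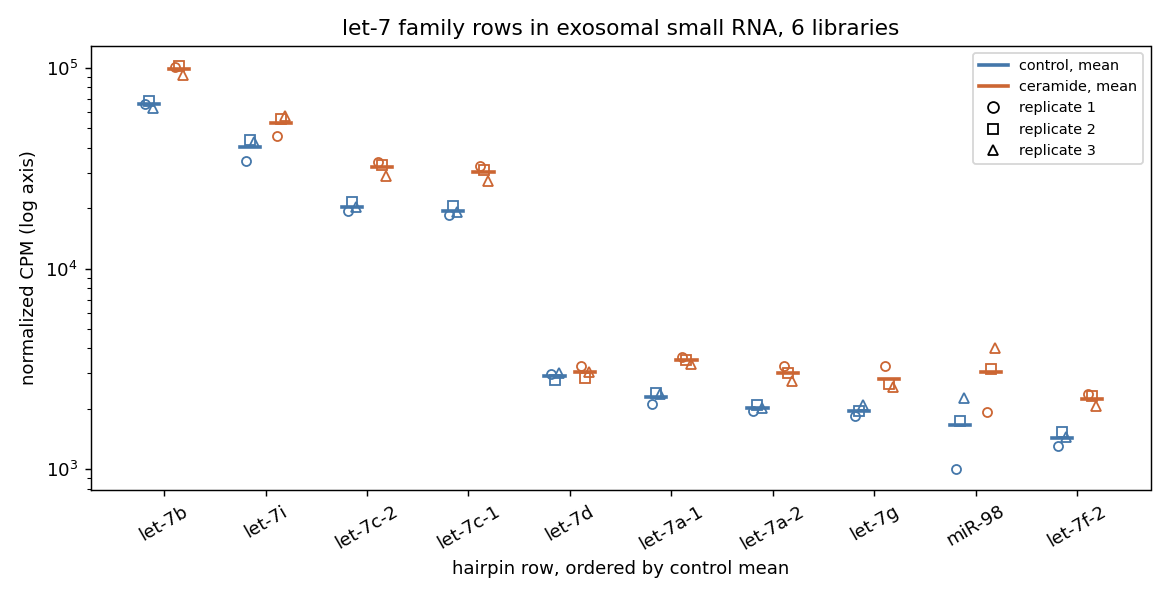
Normalized CPM (log axis) of the 10 let-7 family rows, ordered by control mean, with one symbol per library and a line at the mean of each group (n = 3). The ceramide libraries lie above the control libraries in 8 rows, and let-7d and miR-98 overlap.

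The remaining 6 rows formed a low tier, between 998 and 4040 CPM in any library. In control exosomes let-7d led this tier at 2930 ± 139 CPM, followed by let-7a-1 at 2294 ± 159 CPM, and these 2 did not overlap. The next rows, let-7a-2 (2019 ± 65.6 CPM), let-7g (1955 ± 120 CPM), miR-98 (1667 ± 633 CPM) and let-7f-2 (1431 ± 121 CPM), each overlapped its neighbour in that order (SD, n = 3 each), while both let-7a-2 and let-7g lay above let-7f-2 in every library. The mean of let-7b was 45.9 times that of let-7f-2 in control. In ceramide exosomes let-7a-1 had passed let-7d, with 3488 ± 134 CPM against 3057 ± 207 CPM and again no overlap. There let-7d, miR-98 and let-7a-2 each overlapped the next row in the order, which ended with let-7g and let-7f-2. The let-7g row lay above let-7f-2 without overlap. The lowest mean was that of let-7f-2, although miR-98 was below let-7f-2 in replicate 1.

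All 10 members passed the filter on low counts and had a positive log2 fold change in ceramide, against 49.3% of all rows tested, although that of let-7d was below 0 with library size alone and without ceramide replicate 1. An adjusted p of at most 0.05 (edgeR's quasi-likelihood test, adjusted over 418 rows) was reached by 7 of the 10, all of them higher, while 7.18% of all rows were higher at that level and 19.9% passed in either direction. The groups did not overlap in 8 of the 10, against 14.1% of all rows with ceramide higher and 39.2% in either direction. The median log2 fold change was 0.60 over the members and -0.01 over all rows. With the fold threshold of 0.6 added, 4 members were called (let-7a-1, let-7c-1, let-7c-2 and let-7f-2), against 3.11% of all rows. That number depended on where values close to 0.6 fell. It was 0 with library size alone, 0 without ceramide replicate 1, 2 without control replicate 1, 6 without control replicate 2 and 6 without ceramide replicate 3, while the count at adjusted p alone stayed between 6 and 8 in the 6 fits that each left out 1 library.

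The members that rose did so by similar amounts. The let-7b row rose 1.5-fold, by 0.59 on the log2 scale (standard error 0.07, edgeR adjusted p = 0.0026), and let-7c-1 rose by 0.65 (standard error 0.09, edgeR adjusted p = 0.00266). The let-7a-1 row (chr13:48538179-48538272, minus strand, in an exon of 6720427I07Rik) had 2111, 2399 and 2372 CPM without ceramide and 3608, 3512 and 3344 CPM with it. Its log2 fold change was 0.60 (standard error 0.08, edgeR adjusted p = 0.00344), and that of let-7a-2 (chr9:41536716-41536811) was 0.57 (standard error 0.09, edgeR adjusted p = 0.00529). No let-7a library of one group reached the other group.
The let-7f-2 row (chrX:151912346-151912428, in an intron of Huwe1) had 1299, 1537 and 1455 CPM without ceramide and 2367, 2321 and 2058 CPM with it, a log2 fold change of 0.65 (standard error 0.10, edgeR adjusted p = 0.00527). The let-7g row (chr9:106178840-106178927, in an intron of Wdr82) had 1843, 1940 and 2082 CPM without ceramide and 3260, 2651 and 2578 CPM with it, and ceramide replicate 1 stood above the other libraries. The log2 fold change of let-7g was 0.53 (standard error 0.11, edgeR adjusted p = 0.0198), and it no longer passed without control replicate 1 (edgeR adjusted p = 0.0867), control replicate 2 (0.0558) or ceramide replicate 2 (0.0608).

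The exception was let-7d (chr13:48536012-48536114, minus strand, in an exon of 6720427I07Rik). It had 2991, 2771 and 3029 CPM without ceramide and 3269, 2855 and 3047 CPM with it, and the groups overlapped. The ceramide over control change of let-7d, 0.06 on the log2 scale with a standard error of 0.09, did not pass (edgeR adjusted p = 0.62), and in none of the 16 alternatives did it pass (adjusted p from 0.276 to 0.933). The sign of this small value was not fixed, being -0.0186 with library size alone and -0.00909 without ceramide replicate 1.

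For let-7i and miR-98 the outcome at an adjusted p of at most 0.05 depended on the fit. It changed when libraries with the same replicate number were compared with each other, and for let-7i also with the scaling. miR-98 (Mir98, chrX:151913214-151913321, in an intron of Huwe1) had 998, 1748 and 2255 CPM without ceramide and 1920, 3147 and 4040 CPM with it. The groups overlapped, since ceramide replicate 1 lay below control replicate 3, but within each number the ceramide library was the higher one. The log2 difference of miR-98 between libraries of the same number was 0.94, 0.85 and 0.84 for replicates 1, 2 and 3, and that of let-7i was 0.43, 0.35 and 0.42.
With condition as the only term, neither passed. The log2 fold change of miR-98 was 0.87 (standard error 0.35, edgeR adjusted p = 0.126) and that of let-7i was 0.40 (standard error 0.13, edgeR adjusted p = 0.0712). With the replicate number as a block both passed, miR-98 at 0.88 (standard error 0.06, edgeR adjusted p = 0.000597) and let-7i at 0.40 (standard error 0.03, edgeR adjusted p = 0.000638). The study states no pairing, and the block was chosen from correlations in these same data, so its p-values are not independent of that choice. Over all 418 rows the block raised the number at an adjusted p of at most 0.05 from 83 to 189. With condition alone let-7i also passed with the median-of-ratios factors (edgeR adjusted p = 0.0453), with upper-quartile factors (edgeR adjusted p = 0.0482) and without ceramide replicate 1 (edgeR adjusted p = 0.0422). Over all alternatives the adjusted p ran from 0.000597 to 0.281 for miR-98 and from 0.000638 to 0.237 for let-7i. In the blocked fit 9 of the 10 members rose at an adjusted p of at most 0.05, against 20.3% of all rows that rose there, and let-7d, at 0.06 (standard error 0.06, edgeR adjusted p = 0.447), was the one that did not.

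**Figure D2:**
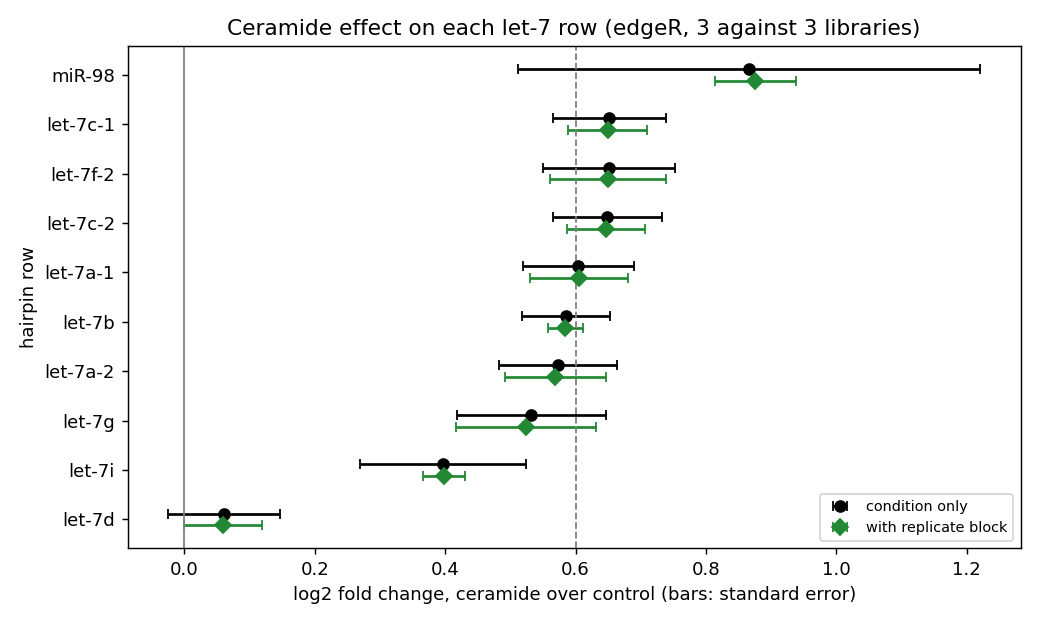
Log2 fold change of each let-7 row, ceramide over control, with standard errors, from edgeR with condition only (circles) and with the replicate block (diamonds). The dashed line marks the fold threshold of 0.6, near which most members lie, and the block shortens the bars of miR-98 (0.35 to 0.06) and let-7i (0.13 to 0.03). The block rests on a pairing read from these same data.

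Between the libraries with lane code 1, which number 1 in each group and so allow no test, the log2 difference was 0.62 for let-7b, 0.77 for let-7a-1, 0.82 for let-7c-1, 0.87 for let-7f-2, 0.82 for let-7g, 0.94 for miR-98, 0.43 for let-7i and 0.13 for let-7d. There let-7d and let-7i were again the 2 smallest. A fit with lane as a further term takes its fold changes from these same libraries and its spread from the replicates of the other lane codes. It assumes that the lone libraries vary like the rest, and under it let-7b, at 0.62 (standard error 0.13), did not pass (edgeR adjusted p = 0.0796).

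To compare the rise of members directly, the count of each was divided by the let-7b count of the same library, a ratio that no scaling between libraries can alter. For let-7d the log2 ratio was -4.46, -4.63 and -4.38 in control and -4.95, -5.16 and -4.93 in ceramide. The mean change was -0.52 on the log2 scale (standard error 0.10), and the groups did not overlap, with all ceramide libraries the lower. The exact permutation test gave p = 0.1, the smallest two-sided p that 3 libraries against 3 allow, and 0.75 after adjustment over the 9 ratios. By replicate number the change was -0.49, -0.53 and -0.55.
The let-7i ratio was -0.94, -0.65 and -0.56 in control and -1.14, -0.87 and -0.69 in ceramide, so the groups overlapped (difference -0.19, standard error 0.18, exact permutation p = 0.4, adjusted 0.75). Within each replicate number it was nevertheless lower in ceramide, by -0.20, -0.23 and -0.13, for which an exact sign-flip test can give no p under 0.25 and gave 0.25. A lower ratio in ceramide was thus seen between all libraries for let-7d, and for let-7i between libraries of the same number.
The ratios of both let-7a rows, both let-7c rows, let-7f-2 and let-7g to let-7b changed by -0.06 to 0.07 on average, with overlapping groups, and replicate number 1 gave the highest difference in each. The ratio of miR-98 to let-7b was higher in ceramide by 0.32, 0.27 and 0.28 by replicate number, a mean of 0.29 (standard error 0.50 without pairing, exact permutation p = 0.6, adjusted 0.771).

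**Figure D3:**
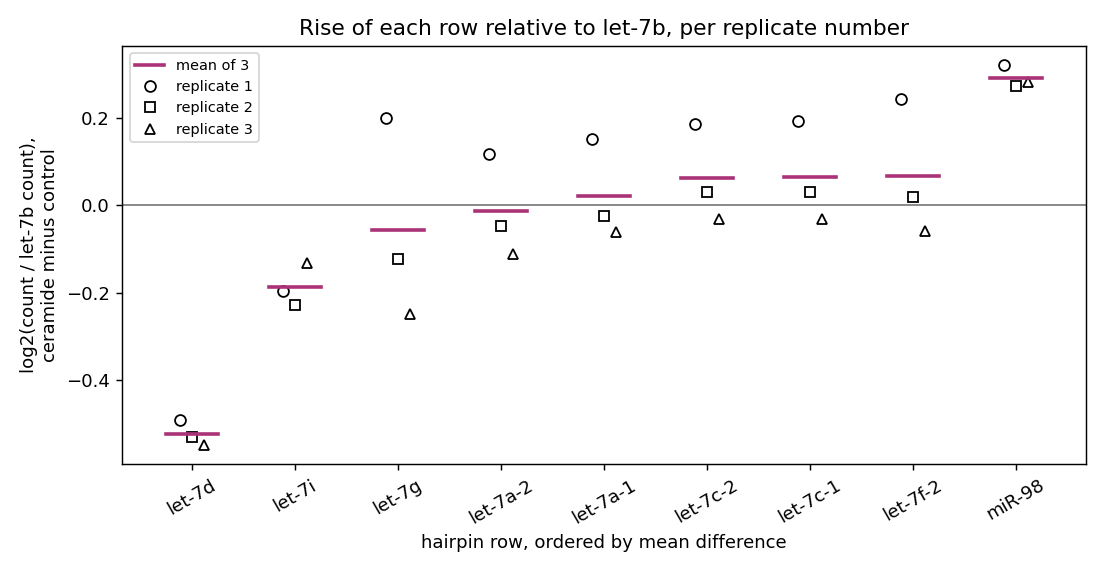
Log2 ratio of each row's count to the let-7b count of the same library, ceramide minus control, for each replicate number (symbols) and on average (line). All 3 values are near -0.5 for let-7d, between -0.23 and -0.13 for let-7i and between 0.27 and 0.32 for miR-98, while the other rows lie on both sides of 0.

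Of all 45 pairs of members, the within-library ratio did not overlap between groups in 9, and let-7d was in 7 of these. Its partners were both let-7a rows, let-7b, both let-7c rows, let-7f-2 and let-7g. The ratios of the let-7a, let-7c and let-7f-2 rows to 404 other rows were set beside these. They were higher in ceramide without overlap for 66.6% (let-7a-2) to 69.1% (let-7c-2) of those rows. A lack of overlap against these partners is therefore not particular to let-7d. That share was not computed for let-7b and let-7g. The other 2 pairs set let-7a-2 against the let-7c rows, where the ratio was lower in ceramide, by a log2 difference of -0.08. Among the 15 pairs within let-7a, b, c and f these were the only pairs without overlap, and no pair with let-7i was among the 9. Each of the 9 had an exact permutation p of 0.1, the smallest possible, and 0.5 after adjustment over the 45 pairs. Pairs that differ only in which let-7a row or which let-7c row they hold are not separate observations.
As a share of the counts of the 10 members, let-7d made up 1.86 ± 0.179% in control and 1.32 ± 0.114% in ceramide (SD, n = 3 each, exact permutation p = 0.1, adjusted 0.5 over the 10 shares). It was the one of the 10 shares whose groups did not overlap, at an adjusted p that does not set it apart. Shares of one total also depend on one another. The let-7b share was 41.7 ± 2.2% in control and 42.6 ± 1.22% in ceramide (exact permutation p = 0.6), and the let-7i share was 25.4 ± 2.2% and 22.9 ± 2.91% (exact permutation p = 0.3). When the let-7a rows and the let-7c rows were each averaged to count a 5p miRNA once, let-7b made up 48.4 ± 2.65% of the family in control and 50 ± 2% in ceramide. Over the same libraries the part of all counts held by the 10 rows was 16.2 ± 0.768% in control and 22.5 ± 0.327% in ceramide (SD, n = 3 each).

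Most let-7 hairpins lie close to other hairpins and are thought to be cut from shared primary transcripts. In the chromosome 13 cluster, let-7a-1 and let-7d lie 2065 bases apart in 6720427I07Rik with let-7f-1 between them. The log2 ratio of let-7a-1 to let-7d was -0.50, -0.21 and -0.35 in control and 0.14, 0.30 and 0.13 in ceramide. In every control library let-7d was the higher of the 2, and in every ceramide library let-7a-1 was, a change of 0.55 (standard error 0.10, exact permutation p = 0.1, adjusted 0.125 over 10 cluster ratios). Gm24111, which stands over let-7f-1, rose by 0.68 (standard error 0.10, edgeR adjusted p = 0.00487). Of the rows named for this cluster, let-7d was the one that did not pass. The let-7a-1 and Gm24111 rows may hold reads of let-7a-2 on chromosome 9 and let-7f-2 on chromosome X, so their rise cannot be placed on chromosome 13.
On chromosome 15, let-7c-2 and let-7b lie 622 bases apart and both rose, with a ratio that changed by 0.06 (standard error 0.05, exact permutation p = 0.4). On chromosome X, let-7f-2 and miR-98 lie 786 bases apart in the same intron of Huwe1. Their log2 ratio spread from -0.97 to 0.38 over the 6 libraries, wider than its change of -0.22 (standard error 0.47, exact permutation p = 0.7).

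The other clusters pair a let-7 hairpin with members of the miR-99/100 and miR-125 families, which have other seeds. Of the 6 partner rows, 3 fell at an adjusted p of at most 0.05 and none rose, against 12.7% of all rows that fell at that level. The median log2 fold change of the partners was -0.42. On chromosome 16, Mir99a lies 657 bases from let-7c-1. It had 314, 403 and 255 CPM without ceramide and 144, 187 and 166 CPM with it, a log2 fold change of -0.96 (standard error 0.19, edgeR adjusted p = 0.0139). The ratio of let-7c-1 to Mir99a was higher in ceramide by 1.60 on the log2 scale (standard error 0.22).
On chromosome 9, Mir100 lies 5212 bases from let-7a-2. It had 714, 819 and 599 CPM without ceramide and 373, 477 and 465 CPM with it, a log2 fold change of -0.69 (standard error 0.15, edgeR adjusted p = 0.0229), and the log2 ratio of let-7a-2 to Mir100 was higher by 1.26 (standard error 0.21). In both clusters the let-7 row and its neighbour moved in opposite directions, each without overlap of the groups. Since reads of let-7c-1 and let-7c-2, and of let-7a-1 and let-7a-2, may be counted in both rows, the let-7 values cannot be assigned to the hairpin on chromosome 16 or 9.
The third such cluster, on chromosome 17, holds let-7e, which has no row here. Gm25927, a GENCODE gene over let-7e on the opposite strand, had 794, 877 and 881 CPM without ceramide and 1303, 1313 and 1311 CPM with it, a log2 fold change of 0.62 (standard error 0.08, edgeR adjusted p = 0.0029). Reads from let-7e and from Gm25927 itself cannot be told apart unless the counting used strand, which the study does not state. Mir125a, 368 bases from let-7e, had 6831, 7699 and 8840 CPM without ceramide and 4138, 4673 and 5207 CPM with it, a log2 fold change of -0.74 (standard error 0.13, edgeR adjusted p = 0.00771). The log2 ratio of Gm25927 to Mir125a was higher by 1.36 (standard error 0.12).
The remaining partners did not pass with condition alone. For Mir99b the log2 change was -0.12 (standard error 0.15), for Mir125b-1 -0.14 (standard error 0.09) and for Mir125b-2 -0.14 (standard error 0.09), and Mir125b-1 and Mir125b-2 held nearly equal levels, 26527 and 26214 CPM on average in control. With the replicate block Mir125b-1 (edgeR adjusted p = 0.0184) and Mir125b-2 (edgeR adjusted p = 0.0195) passed as lower and Mir99b did not, against 24.9% of all rows that fell in that fit. The ratios of the let-7 rows to these 3 neighbours were higher by 0.71 to 0.79, without overlap of the groups. In all, 8 of the 10 cluster ratios had no overlap, each at the smallest possible exact permutation p of 0.1 and 0.125 after adjustment. This is not particular to neighbours, because the ratio of a risen let-7 row to any of 404 other rows was higher without overlap for 66.6% (let-7a-2) to 69.3% (Gm24111) of them. With lane as a further term, Mir99a (-1.12), Mir100 (-0.94) and Mir125a (-0.72) were not called, at log2 fold changes taken from the libraries with lane code 1 alone. Without control replicate 1, Mir99a (edgeR adjusted p = 0.056), Mir100 (0.0999), Gm24111 and Gm25927 were not called, the last 2 having log2 fold changes of 0.58 and 0.57. Mir100 was also lost without control replicate 2 (edgeR adjusted p = 0.0867), without ceramide replicate 2 (edgeR adjusted p = 0.0605) and with no filter on low counts (edgeR adjusted p = 0.056). Gm25927 was also not called with library size alone (log2 fold change 0.54) and with no filter on low counts (0.59).

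**Figure D4:**
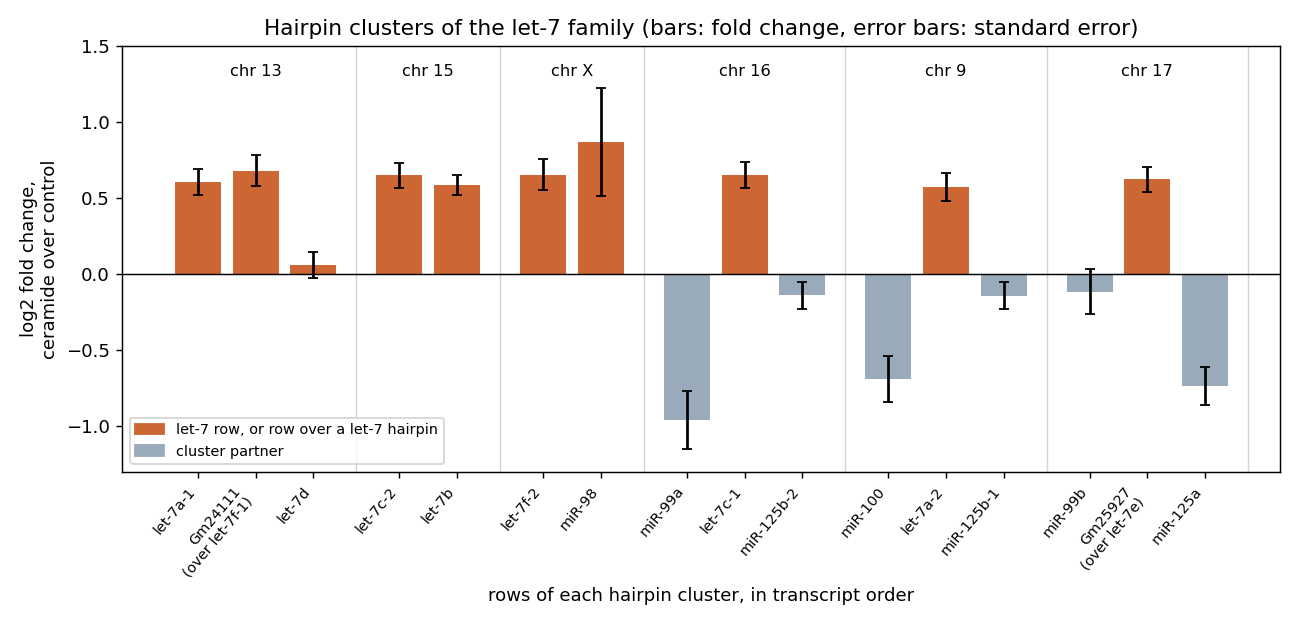
Log2 fold change (ceramide over control, with standard error) of the rows of 6 hairpin clusters in transcript order, let-7 rows and rows over let-7 hairpins in orange and partner hairpins in grey. On chromosome 13 let-7d (0.06) stands below let-7a-1 (0.60), and on chromosomes 16, 9 and 17 the let-7 row is above 0 and both of its neighbours are below 0.

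Few other rows carry the let-7 seed. The 3 mature miRNAs named let-7j, let-7k and miR-1961 were the further candidates, and of these let-7j has G8U within the seed. Mir7j (let-7j) had 22.7 ± 10.4 CPM without ceramide and 10.5 ± 3.57 CPM with it (SD, n = 3 each). Its log2 difference of -1.25 did not pass with condition alone (standard error 0.41, edgeR adjusted p = 0.0721). It passed with the replicate block (edgeR adjusted p = 0.0236) and without control replicate 1 (edgeR adjusted p = 0.0286), and its log2 difference by replicate number was 0.38, -1.42 and -2.09. Mir7k held 18 counts and Mir1961 held 2 counts over the 6 libraries, too few to test.

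Among the other rows tested, those with the profile over the 6 libraries most like that of the summed family were Mir26b, Mir669c, Mir8091, Mir122 and Mir183. The measure was the root mean square difference of centred log2 CPM, which was 0.0562 for Mir26b and at most 0.096 for the other 4. Within the family it ran from 0.0448 for let-7a-1 to 0.27 for let-7d and 0.482 for miR-98, so Mir26b followed the summed family more closely than 8 of its 10 members did. Mir26b rose by 0.49 on the log2 scale (standard error 0.09, edgeR adjusted p = 0.00875).
Mir122, a liver miRNA abundant in serum, was on the list of blood and serum miRNAs because the culture medium holds serum. Of the 7 miRNAs of that list 5 had a row (Mir486a under its GENCODE name Mir486), none of the 5 passed, and none was at 0. Their summed level ran from 375 to 408 CPM in control libraries and from 351 to 403 CPM in ceramide libraries, so the groups overlapped. Mir486, the most abundant, had 281, 238 and 283 CPM in control libraries and 178, 229 and 256 CPM in ceramide libraries. The sum of the other 4 ran from 112 to 137 CPM and from 147 to 173 CPM, higher in ceramide without overlap. Those 4 had a positive log2 fold change, against 49.3% of all rows. The groups did not overlap for Mir122 (0.39, edgeR adjusted p = 0.0635) and Mir223 (0.58, edgeR adjusted p = 0.0553), with ceramide higher. A row named Mir142b was not on the list. The part of these rows in the let-7 values was not tested.
The summed level of the 14 listed neural rows ran from 9076 to 10290 CPM in control libraries and from 6910 to 7464 CPM in ceramide libraries. Most of it came from the 2 Mir138 rows, which summed to 6885 to 8104 CPM and to 4971 to 5630 CPM, and the other 12 rows summed to 2182 to 2256 CPM and to 1833 to 1938 CPM. Of the 14 rows 4 fell at an adjusted p of at most 0.05 (Mir128-1, Mir128-2, Mir138-1 and Mir338) and none rose, against 12.7% of all rows that fell and 7.18% that rose. A positive log2 fold change was found in 4 (Mir9-2, Mir9-3, Mir137 and Mir219a-2). The Mir124a rows held nearly equal levels in each library, as did Mir9-2 and Mir9-3, so not every row is a separate observation. The part of the neural rows in the let-7 values was not tested either.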

How the data were processed

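The authors demultiplexed the reads with Bcl2Fastq, trimmed them with Cutadapt 1.15, aligned them to GRCm38 with STAR 2.5.3a and deposited raw counts per GENCODE miRNA gene (STAR GeneCounts). Libraries were made with the QIAseq miRNA kit. Whether its molecular identifiers or the strand entered the counting, how reads with several matches were handled and which GENCODE release was used are not given in the sources used here. Names and coordinates came from GENCODE M21 (GRCm38), which matched 1894 of 1973 rows. The family members and gene lists were chosen with earlier results of these data known.

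Counts were tested with edgeR 4.0.16 (R 4.3.3), with TMM, filterByExpr, the quasi-likelihood test, condition only and Benjamini-Hochberg adjustment over 418 rows. Calls used the study's thresholds, an adjusted p of at most 0.05 and a log2 fold change of 0.6 or more in size. DESeq2 1.42.0 and limma 3.58.1 (voom) were alternatives. Standard errors of edgeR fold changes come from the F statistic, and those of ratios from the variances of both groups without pairing. Ratios and shares used raw counts and two-sided exact permutation tests. The steps were tested on simulated data. Libraries of the same replicate number deviated together from their group means (r = 0.591, 0.426 and 0.752 over rows, against -0.593 to 0.105 between unlike numbers). The numbers were therefore taken as pairing them in the block, but not in the main fit or the permutation tests. The study does not state a pairing, and it was read from these same data. Replicate 1 also shares lane code 1 in both groups, and deviations from a mean of 3 depend on one another. The rule for named genes took the members, rows over other let-7 hairpins, rows within 10 kb and named cluster partners, rows with the let-7 seed, and the 5 rows most alike in profile.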

Additional observations from a re-analysis of the deposited data

How the results depend on the processing

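The count of called rows (48) was 87 with the replicate block, 29 with lane as a further term and 83 without a fold threshold, and 28 to 55 with 1 library left out. The number of members at an adjusted p of at most 0.05 (7 of 10) lay between 6 and 9 over the alternatives that kept 10 rows and was 5 of 8 with the let-7a and let-7c rows averaged. Past the fold threshold as well, 4 members became 7 with DESeq2's size factors and 7 with upper-quartile factors, and 5 with the block. The block added let-7i and miR-98 at adjusted p and changed the outcome of no other member at that level. Of 158 values of single members under an alternative, 127 kept direction and call, 13 lost the call, 16 gained it and 2 changed sign. Both were let-7d, at -0.0186 with library size alone and, with 1 library left out, from -0.00909 (without ceramide replicate 1) to 0.101.

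The rise of the family's part of all counts, 6.29 percentage points, was 5.54 with the let-7a and let-7c rows averaged and 5.86 to 6.60 with 1 library left out. The change of the let-7b share, 0.90 percentage points, was -0.0315 without control replicate 3 and at most 2.12 with another library left out. The fall of let-7d against let-7b lay between -0.60 and -0.45 with 1 library left out, -0.50 against the other 9 members and -0.47 against let-7g. That of let-7i lay between -0.30 and -0.07. With 3 libraries against 3 no exact permutation p under 0.1 is possible.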
